A study of Homo sapiens with 24 samples.

Results

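Palbociclib-treated SKBR3 cells were compared with untreated SKBR3 cells kept in culture for the same 7 days. The comparison took 6 of the 24 mRNA-seq libraries of the series, 3 of each group, chosen by their treatment labels, and all 14493 genes of the count table. SKBR3 is an established human breast cancer cell line, luminal and with an amplified HER2 (ERBB2) gene. The drug concentration was 1 μmol/L, renewed on day 3, and cells were harvested on day 7 together with a control group that received no drug. The labels name a renewal for every treated group and none for the untreated day-7 group, so their effects cannot be told apart. Cells given alisertib at 500 nmol/L, an Aurora A kinase inhibitor that disturbs mitosis, or bleomycin at 10 μmol/L, an antibiotic that breaks DNA, on the same schedule served as 2 further groups of 3 libraries for direct comparison, and untreated day-0 cells as an alternative reference. All groups were the same line, which is 1 genetic background, and the labels give no sign of how the 3 cultures of a group were separated, so p-values measure the spread between these libraries, which may be technical.

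Palbociclib blocks CDK4 and CDK6, the kinases that cyclin D activates in G1. These kinases phosphorylate RB, the product of RB1, and phosphorylated RB lets go of E2F transcription factors, which then drive the genes of DNA replication. Genes of mitosis come on later, through the MuvB complex with MYBL2 and FOXM1, at a promoter element called CHR (cell cycle genes homology region). When the kinases stay blocked, RB and its relatives hold both gene sets down, and a lasting arrest of this kind can become senescence, a state in which cells stop dividing while they enlarge, expand their lysosomes and secrete factors.

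The promoters of both gene sets are shown first because nearly every gene of both sets was lower in palbociclib cells. The E2F motif was searched as TTTGGCGC, TTTGCCGC, TTTCGCGC or TTTCCCGC and the CHR motif as TTTGAA or TTCGAA, on both strands, in promoters that reach from 250 bases before to 50 bases after the RefSeq start (GRCh38.p14). No E2F sequence contains a CHR sequence. Of the 42 tested genes of replication licensing and the replication fork, 35 had a promoter in the RefSeq table and 18 of those held an E2F motif (51.4%), and 2 held a CHR motif (5.71%). Of the 77 tested mitosis genes, 64 had a promoter, of which 45 held a CHR motif (70.3%) and 6 an E2F motif (9.38%). Among the 10669 tested genes with a promoter, 5.39% held an E2F motif and 10.9% a CHR motif, and among all 27305 promoters 3.33% and 16.6% did. Genes lower in palbociclib cells by a fold of at least 2 (482 promoters, adjusted p under 0.05) held them in 9.75% and 16.6%. Genes higher by as much (622 promoters) did in 2.09% and 14.3%, so the CHR share was similar in both directions. A match is a description of the letters, not a binding site.

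The following windows of 120 bases, from 90 bases before to 30 bases after the start, belong to 3 replication genes and 3 mitosis genes. These genes had large falls and held the motif in the window, where it is in capitals. Not every gene with the motif was eligible, so genes with larger falls may be missing. GINS2 encodes a subunit of the GINS complex of the replicative helicase (chr16:85688925-85689044, minus strand), CLSPN the checkpoint adaptor claspin (chr1:35769949-35770068, minus strand) and POLE2 a subunit of DNA polymerase epsilon (chr14:49688185-49688304, minus strand).
GINS2: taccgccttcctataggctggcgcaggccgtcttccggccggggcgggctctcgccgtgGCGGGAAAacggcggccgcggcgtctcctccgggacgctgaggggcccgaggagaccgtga
CLSPN: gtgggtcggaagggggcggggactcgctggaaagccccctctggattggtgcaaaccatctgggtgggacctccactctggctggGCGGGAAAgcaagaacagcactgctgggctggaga
POLE2: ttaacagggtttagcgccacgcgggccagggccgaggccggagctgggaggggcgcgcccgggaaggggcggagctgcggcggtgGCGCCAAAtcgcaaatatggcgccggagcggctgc
The other 3 carry the CHR motif. SPC25 (chr2:168890401-168890520, minus strand) and NDC80 (chr18:2571467-2571586, plus strand) encode subunits of the kinetochore's NDC80 complex, and CKAP2L (chr2:112764580-112764699, minus strand) a spindle protein. CKAP2L held the motif in 2 places, and in NDC80 2 matches lay side by side.
SPC25: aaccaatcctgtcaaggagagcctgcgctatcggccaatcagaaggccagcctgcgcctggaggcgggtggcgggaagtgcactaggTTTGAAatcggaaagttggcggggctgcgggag
CKAP2L: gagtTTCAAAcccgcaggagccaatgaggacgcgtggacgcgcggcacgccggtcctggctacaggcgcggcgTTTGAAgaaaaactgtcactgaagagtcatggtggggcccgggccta
NDC80: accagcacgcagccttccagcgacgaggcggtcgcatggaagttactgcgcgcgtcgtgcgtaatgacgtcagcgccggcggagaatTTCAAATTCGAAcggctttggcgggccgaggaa

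Library depth ranged from 30060164 to 32354645 counts in palbociclib cells and from 31791397 to 44316330 in untreated day-7 cells. Of the 12 markers of SKBR3 or luminal identity, 11 were measured, and their summed level was 16600 to 17300 CPM (counts scaled to a common library size, with TMM normalization) in palbociclib cells and 17200 to 20000 CPM in untreated cells. CDH1 was not analysed here. Of 14 markers of fibroblasts, blood cells and endothelium, 3 were measured, with a summed level of 46.5 to 54.7 CPM in palbociclib cells and 15.4 to 18 CPM in untreated cells, and this difference came from CDH5, a cadherin known from endothelium, at 38.1, 37.9 and 45.4 CPM against 2.43, 5.5 and 3.95 CPM (3.38). The part of other cells in this value was not tested. Between the log2 CPM profiles, the mean Euclidean distance from palbociclib libraries was 43.1 among themselves, 63.8 to doxorubicin and 67.5 to alisertib libraries. It was 82.6 to bleomycin, 87.3 to untreated day-7 and 105 to untreated day-0 libraries. To the fatty acid synthesis inhibitors it was 80.4 for TVB-3166 and 97.2 for ND-646, whose pairs ranged from 79.8 to 128.

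Of 13788 genes tested with edgeR's quasi-likelihood test, 3027 were higher in palbociclib cells (22.0%) and 3151 lower (22.9%) at a Benjamini-Hochberg adjusted p-value under 0.05. A fold-change of at least 2 was reached by 879 of the higher and 639 of the lower genes. The median log2 fold-change over all tested genes was 0.0054, so gene lists are read against a centre near 0 and against these 2 percentages. Fold-changes below are palbociclib over untreated day-7 cells, on the log2 scale with standard errors, and a gene is said to rise or fall only where its adjusted p-value was under 0.05.

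The direct targets of the drug and its substrate moved little or in opposite directions. CDK4 was at 96.8, 95.9 and 89.8 CPM in the 3 palbociclib libraries and at 112, 104 and 122 CPM in the untreated libraries. These ranges did not overlap, but the fall was small, at -0.25 ± 0.079 (adjusted p = 0.0238), and it missed the threshold when untreated replicate 3 (-0.19), palbociclib replicate 2 (-0.25) or palbociclib replicate 3 (-0.22) was left out. CDK6 was at 86.7, 95.9 and 102 CPM against 37.9, 58.2 and 50.1 CPM, higher in every palbociclib library, with a change of 0.97 ± 0.13 (adjusted p = 0.000192). RB1 was at 56.8, 52.6 and 57.4 CPM against 71.1, 67.9 and 68.8 CPM, and fell by 0.31 on the log2 scale (adjusted p = 0.00739). CDK4 (chr12:58141510-58149796), CDK6 (chr7:92234235-92465887) and RB1 (chr13:48877880-49173572) are given here in GRCh37 coordinates.

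Among the cyclins, CCND1, which encodes the cyclin D1 that activates CDK4 and CDK6, rose from 216, 184 and 173 CPM to 437, 496 and 399 CPM, a change of 1.22 ± 0.11 (adjusted p = 8.83e-06). Every palbociclib library was above every untreated one. CCND3, another D-type cyclin, went the other way, from 59.8, 42.1 and 55.2 CPM to 27.5, 27.5 and 26.1 CPM (-0.95 ± 0.12, adjusted p = 0.000126). The 2 E-type cyclins, which activate CDK2 at the G1 to S transition, differed from each other. CCNE2 fell from 6.28, 5.33 and 6.03 CPM to 1.74, 1.02 and 1.79 CPM (-1.94 ± 0.23, adjusted p = 7.46e-05). CCNE1 stayed between 22.5 and 28.1 CPM in all 6 libraries, with a change of -0.05 and a 95% interval from -0.28 to 0.18. CCNA2, cyclin A2 of S phase and G2, fell from between 74.5 and 76.9 CPM to between 17.3 and 24.1 CPM (-1.87 ± 0.12, adjusted p = 1.45e-06). Over the 16 tested cyclins, CDKs and their activators, 3 rose, 9 fell and 4 did not pass the test, and the median was -0.37.

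Members of the E2F family moved both ways within each class. The activators E2F1 (46.9, 39.8 and 51.2 CPM untreated, 14.7, 12.8 and 16.1 CPM with palbociclib, -1.65 ± 0.12, adjusted p = 4.22e-06) and E2F2 (-2.09) fell, as did E2F7 (-2.23) and E2F8 (-2.09), repressors that are themselves E2F target genes. The untreated and palbociclib ranges of all 4 were apart. E2F3, also an activator, and E2F5, a repressor that works with RB relatives, rose by smaller amounts, E2F3 from 47.3, 50 and 53.1 CPM to 67.1, 71.4 and 65.1 CPM (0.44 ± 0.080, adjusted p = 0.00103) and E2F5 by 0.91 (adjusted p = 0.000569). RBL1, which encodes the RB relative p107, fell by 1.36 on the log2 scale, and RBL2, which encodes p130, the relative that prevails in resting cells, was at 93.4, 101 and 104 CPM against 72.7, 93.6 and 76.2 CPM, overlapping ranges with a change of 0.31 (adjusted p = 0.0245) that missed the threshold without untreated replicate 1 (0.24) or 3 (0.27) or palbociclib replicate 3 (0.27). Of the 13 RB and E2F family members, 4 rose, 7 fell and 2 did not pass the test.

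Of the 8 genes listed by name as CDK inhibitors, 7 were tested and all 7 passed the test, 3 upwards and 4 downwards. CDKN1C, which encodes p57, is not among these 7. CDKN2B, which encodes the CDK4/6 inhibitor p15, rose from 8.22, 10.7 and 10.7 CPM to 87.5, 70 and 81.4 CPM, an 8.16-fold increase (log2 3.03 ± 0.13, adjusted p = 3.29e-07). CDKN1A, which encodes p21, rose from 10.8, 9.87 and 14.9 CPM to 26.5, 26.3 and 24.4 CPM (1.13 ± 0.14, adjusted p = 0.000123). CDKN2A, the neighbouring gene of CDKN2B, which encodes p16 and ARF, rose by 0.39 ± 0.11 (adjusted p = 0.0127, and 0.0979 in a fit of all 24 libraries), from between 11.2 and 12.5 CPM to between 15.2 and 16.4 CPM. In each of the 3 genes the lowest palbociclib library was above the highest untreated one. CDKN1B, which encodes p27, fell by 0.50 on the log2 scale (adjusted p = 0.00186, and 0.0515 against untreated day-0 cells), and CDKN2C, which encodes p18, by 1.30 (adjusted p = 9.98e-06). CDKN2D and CDKN3 fell by 1.26 and 1.70.

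**Figure D1:**
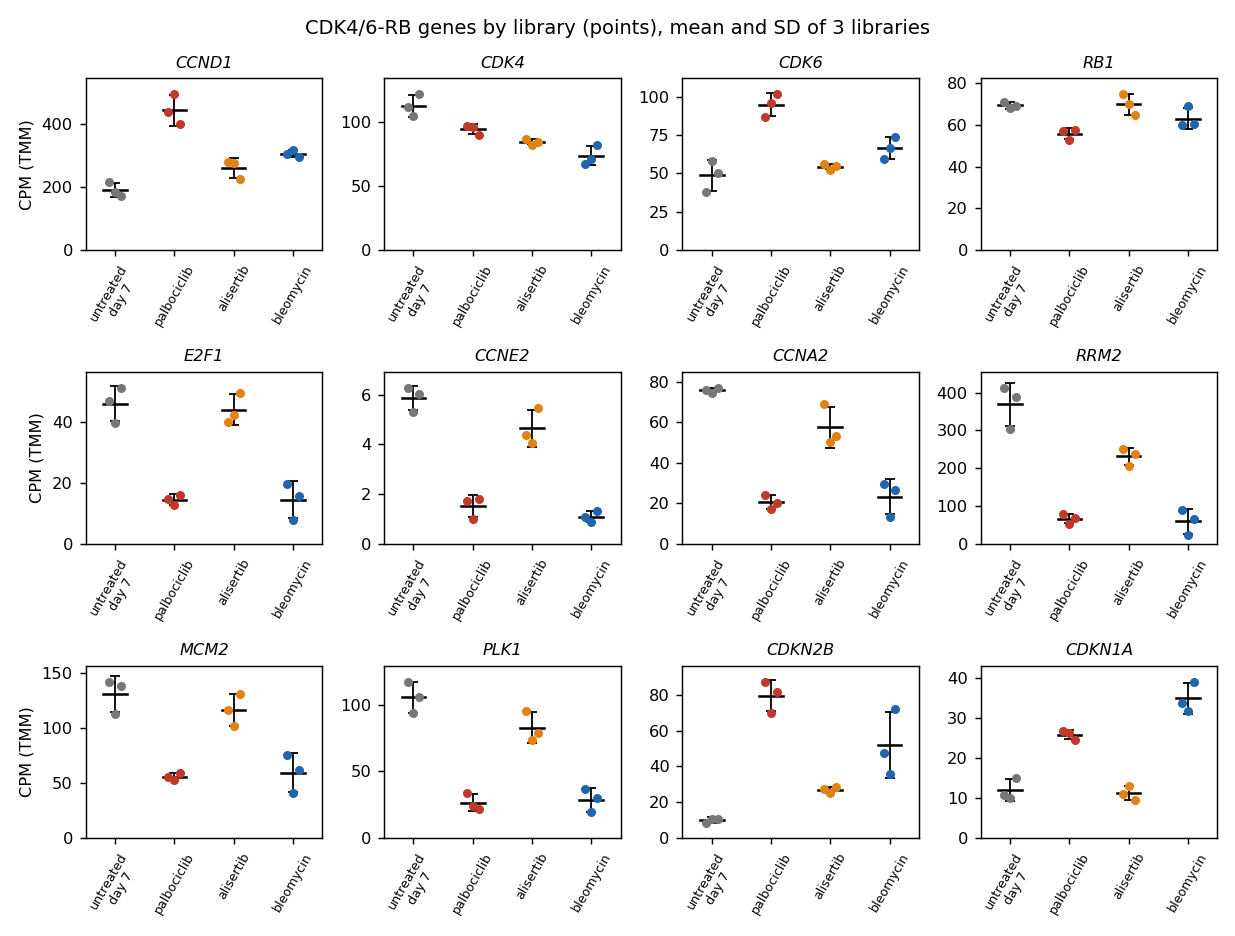
CPM with TMM normalization (linear axes from 0) of 12 genes of the CDK4/6-RB axis and its output in untreated day-7, palbociclib, alisertib and bleomycin cells, with 1 point per library, a bar at the mean and error bars of 1 SD (n = 3). CCND1, CDK6 and CDKN2B were higher in all 3 palbociclib libraries than in untreated and alisertib cells, whereas E2F1, CCNE2, CCNA2, RRM2, MCM2 and PLK1 lay well under untreated and alisertib cells and among the bleomycin values or close to them.

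DNA replication genes fell almost as a block. Of the 42 tested genes of licensing and fork, 39 fell, 0 rose and 3 did not pass the test, where 22.9% of all tested genes fell, and the median was -1.07. In a bulk culture, fewer cells in S phase and less of these mRNAs per cell cannot be told apart. GINS2 was at 33.8, 24.3 and 32.3 CPM in untreated and at 7.5, 4.79 and 6.25 CPM in palbociclib libraries (-2.27 ± 0.18, adjusted p = 5.15e-06). CLSPN fell from 32.2, 27.6 and 34 CPM to 8.29, 4.7 and 8.79 CPM (-2.09 ± 0.20, adjusted p = 1.49e-05), and POLE2 from 13.9, 12.7 and 13.6 CPM to 3.33, 3.02 and 3.23 CPM (-2.06 ± 0.14, adjusted p = 2.16e-06). These are the 3 genes whose E2F motifs are shown above, and none had overlapping ranges. The lowest value of the list was that of PRIM1, the catalytic subunit of primase (-2.30). PCNA, the sliding clamp, fell from 183, 164 and 212 CPM to 66.1, 45.8 and 56.6 CPM (-1.72 ± 0.14, adjusted p = 5.52e-06). The 6 subunits of the MCM2-7 helicase fell by unequal amounts, with changes of -0.47 for MCM3, -0.74 for MCM4, -1.08 for MCM5, -1.23 for MCM2, -1.25 for MCM7 and -1.58 for MCM6. CDC6, which loads that helicase, fell from between 360 and 434 CPM to between 205 and 231 CPM (-0.84). The 3 members that did not pass the test were RFC3 (-0.25), ORC6 (0.08) and CHTF18 (0.30).

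Of the 16 genes of deoxynucleotide synthesis, 12 fell and 0 rose. RRM2, the small subunit of ribonucleotide reductase, was at 413, 305 and 389 CPM in untreated cells and at 77.8, 53.1 and 69.4 CPM in palbociclib cells (-2.46 ± 0.15, adjusted p = 1.45e-06). TYMS, thymidylate synthase and the target of 5-fluorouracil, fell by 2.33 on the log2 scale and RRM1 by 1.09. TK1, cytosolic thymidine kinase and a proliferation marker, did not follow them. Its level was 357, 370 and 326 CPM in palbociclib libraries and 358, 322 and 355 CPM in untreated libraries, a change of 0.03 with a 95% interval from -0.15 to 0.21.

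All 77 tested mitosis genes fell, with a median of -1.20 and a range from -2.20 to -0.42. Their 3 palbociclib and 3 untreated libraries overlapped in none of them. Of all 3151 genes that fell, 3113 had no overlap either, and 3930 of the 13788 tested genes lay lower without overlap. SPC25 was at 16.4, 10.1 and 15.3 CPM in untreated and at 4.2, 2.25 and 2.57 CPM in palbociclib libraries (-2.20 ± 0.25, adjusted p = 5.32e-05), CKAP2L fell from between 28.8 and 33.7 CPM to between 5.38 and 9.21 CPM (-2.17 ± 0.18, adjusted p = 7.13e-06), and NDC80 from between 20.5 and 22.9 CPM to between 3.49 and 6.55 CPM (-2.06 ± 0.19, adjusted p = 1.32e-05). MKI67, which encodes the Ki-67 antigen used to count cycling cells, was at 342, 244 and 245 CPM and then at 83.7, 53.3 and 75.9 CPM, 0.258 of the untreated level. PLK1, a mitotic kinase, fell by 2.01, AURKA, the kinase that alisertib inhibits, by 1.09, and TOP2A, the topoisomerase poisoned by doxorubicin, by 1.51. The smallest falls were those of the spindle checkpoint genes MAD2L1 (-0.42) and BUB3 (-0.46) and of WEE1 (-0.50), the kinase that restrains CDK1.

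Among the factors that drive these genes, 2 of 9 fell. MYBL2 went from 197, 141 and 183 CPM to 41.1, 27.3 and 35.4 CPM (-2.32 ± 0.16, adjusted p = 2.57e-06), and FOXM1 from 170, 133 and 149 CPM to 59.9, 41.3 and 48.6 CPM (-1.58 ± 0.13, adjusted p = 8.03e-06). The other 7 tested genes of the list, which hold the MuvB core subunits LIN9, LIN37, LIN52, LIN54 and RBBP4, with MYBL1 and the kinase DYRK1A, ranged from -0.39 to 0.21 and did not pass the test.

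Among the 35 genes of homologous recombination and Fanconi repair, 22 fell, 3 rose and 10 did not pass the test, with a median of -0.63. EXO1, which resects DNA ends, fell most, from 34.9, 30.6 and 36.9 CPM to 8.43, 6.25 and 9.12 CPM (-2.09 ± 0.14, adjusted p = 2.72e-06). BRCA1, which promotes recombination, fell by 0.98 on the log2 scale. The genes that rose were the kinases ATM, from 48, 56.2 and 43.8 CPM to 70.3, 72.8 and 79 CPM (0.59 ± 0.10, adjusted p = 0.000693), and ATR (0.23), with FANCF (0.35). The count of 3 rests on small changes and was 1 without untreated replicate 1, untreated replicate 3 or palbociclib replicate 2.

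Of 28 chromatin proteins linked to senescence, 23 fell and 0 rose, with a median of -0.71. LMNB1, lamin B1, whose loss is a common marker of senescent nuclei, was at 80, 66.5 and 79.8 CPM in untreated and at 23.7, 15 and 19.1 CPM in palbociclib libraries (-1.96 ± 0.15, adjusted p = 4.8e-06). HMGB2 fell by 1.94, the heterochromatin protein gene CBX5 by 1.27, the lamin B receptor gene LBR by 1.20 and EZH2, the Polycomb methyltransferase, by 0.96. LMNA, which encodes lamins A and C, fell less, by 0.57. DNMT3A, a DNA methyltransferase for unmethylated sites, was at 0.13 and did not pass the test, while DNMT1, which copies methylation after replication, fell by 0.74.

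Histone genes moved both ways, with 11 of 23 higher, 6 lower and 6 that did not pass the test. Against untreated day-0 cells 6 were higher and 9 lower, and the median of 0.39 became -0.19. Among the calls against day-7 cells, the lower ones included the linker histone H1-10, from 64.7, 49.3 and 56.6 CPM to 13.3, 8.7 and 11.2 CPM (-2.35 ± 0.15, adjusted p = 2.16e-06), and the variants H2AX, H2AZ1, H2AZ2 and MACROH2A2. The higher ones were all members of the replication-dependent clusters, led by H2BC4, from 1.12, 0.724 and 1.28 CPM to 6, 6.19 and 6.22 CPM (2.56 ± 0.23, adjusted p = 9.93e-06), and H4C8 (mean 2.32 to 9.29 CPM). Most mRNAs of that kind lack a poly(A) tail, the labels name an mRNA kit and the methods a total RNA kit, and the part of library preparation in these values was not tested. H2AC18 (1.21) and H2AC19 (1.20) are near-identical copies whose reads cannot be separated with certainty.

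**Figure D2:**
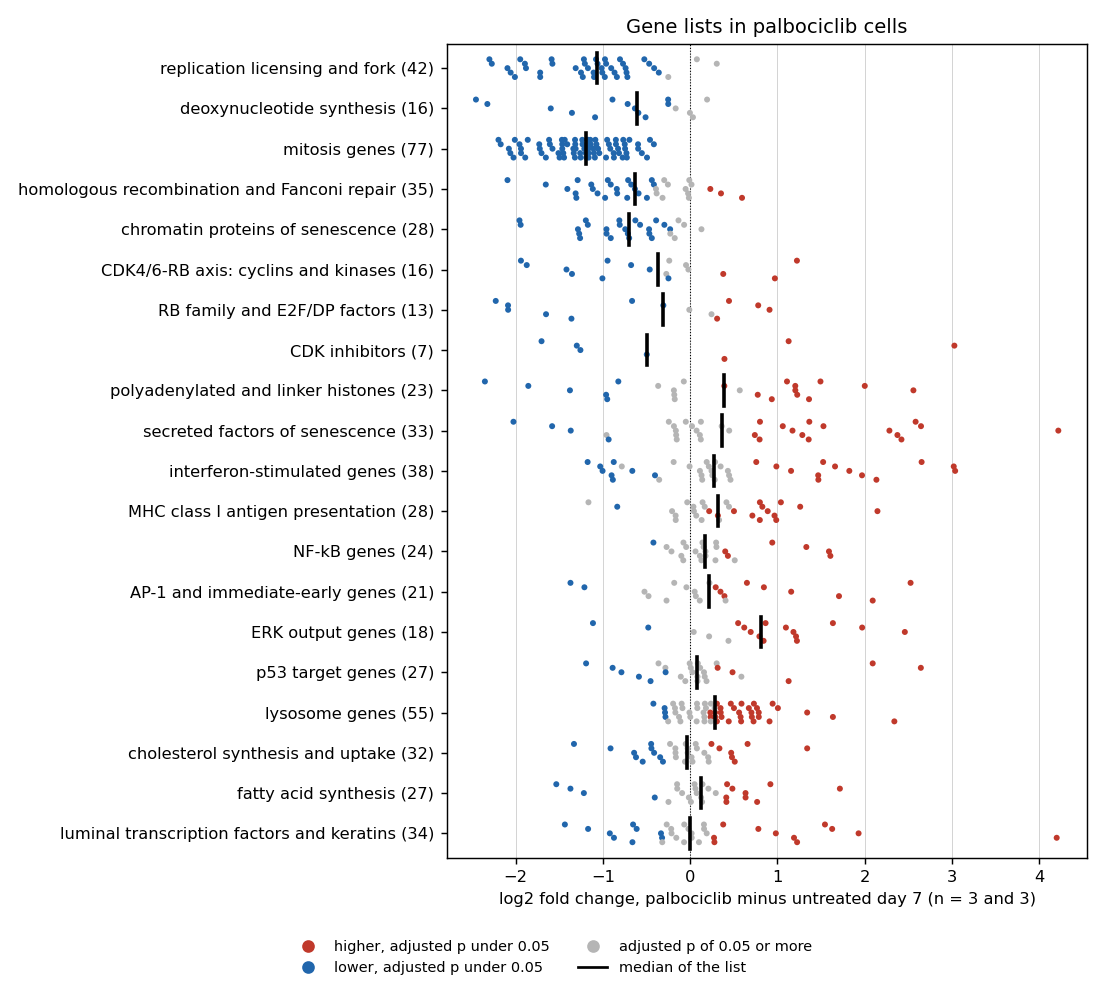
Log2 fold-change of each tested gene in 20 gene lists, palbociclib minus untreated day-7 cells (n = 3 and 3), with 1 point per gene, red for adjusted p under 0.05 and higher, blue for adjusted p under 0.05 and lower, grey for the rest, a black bar at the median of the list and the number of genes in parentheses. All 77 mitosis genes and 39 of 42 replication genes were lower, while ERK output, lysosome and MHC class I genes lay mostly to the right of 0.

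Of 33 measured secreted factors linked to senescence, 15 rose, 4 fell and 14 did not pass the test, with a median of 0.36, where 22.0% of all tested genes rose. The median was 0.18 without untreated replicate 3, with 14 higher and 2 lower. The other 27 members of the list, which include IL6, CXCL8 and IL1B, were not analysed here. Insulin-like growth factor binding proteins moved in both directions. IGFBP5 was at 122, 90.8 and 124 CPM in untreated and at 665, 405 and 663 CPM in palbociclib libraries (2.38 ± 0.19, adjusted p = 6.14e-06), and IGFBP3 rose from 4.83, 7.56 and 6.03 CPM to 33.1, 35.9 and 40.2 CPM (2.58 ± 0.15, adjusted p = 1.22e-06). IGFBP2 fell instead, from 79.7, 66.7 and 63.3 CPM to 19.2, 15.3 and 16.7 CPM (-2.03 ± 0.12, adjusted p = 1.21e-06). TGFB2 rose by 1.53, and GDF15, a stress-induced member of the same superfamily, by 2.28 from 1.85, 5.5 and 2.14 CPM to 11.6, 21.6 and 12.4 CPM. INHBA, which encodes the activin A subunit, had a change of 2.65 at no more than 1.21 CPM in any library. Chemokine and cytokine genes that could be measured were low. CCL2 reached 7.97, 4.95 and 5.98 CPM from 3.68, 1.59 and 2.05 CPM (1.36 ± 0.30, adjusted p = 0.00343), and TNF was at 0.12 with a 95% interval from -0.57 to 0.81.

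Interferon-stimulated genes were not moved as one group. Of 38 tested, 13 rose, 8 fell and 17 did not pass the test, and the median was 0.27. The guanylate-binding proteins, which act against intracellular pathogens, rose most: GBP2 went from 0.573, 0.84 and 0.653 CPM to 5.1, 6.22 and 5.5 CPM (3.04 ± 0.23, adjusted p = 3.85e-06) and GBP3 from 1.1, 1.62 and 1.22 CPM to 8.72, 11.6 and 11.4 CPM (3.02 ± 0.20, adjusted p = 2.23e-06). The transcription factors IRF1 (6.77, 7.27 and 6.89 CPM against 24.9, 20.6 and 20.2 CPM with palbociclib, 1.66 ± 0.12, adjusted p = 3.72e-06) and STAT2 (0.99) rose. OAS3, an antiviral RNA sensor, fell from 14.7, 16.2 and 15.5 CPM to 7.33, 6.6 and 6.49 CPM (-1.18 ± 0.12, adjusted p = 2.45e-05), and IFI6 by 0.88. OAS2 (0.46), MX1 (0.25) and ISG15 (0.14) did not pass the test, at mean levels of 1.92 CPM or less in both groups.

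Of 28 genes of antigen presentation by MHC class I, 13 were higher, 1 lower (ULBP2, a stress ligand of the receptor NKG2D, -0.84) and 14 did not pass the test. HLA-C rose from 8.55, 12.4 and 10.2 CPM to 18.7, 21.8 and 20.8 CPM (0.99 ± 0.14, adjusted p = 0.000235) and HLA-B from 4.67, 6.92 and 5.73 CPM to 10.2, 12.1 and 13 CPM (1.04 ± 0.17, adjusted p = 0.000541). The fall of ULBP2 held only with untreated replicates 1 and 3 and palbociclib replicates 1 and 2 all kept (-0.83 to -0.65 without 1 of them). HLA-B and HLA-C ranges did not overlap between the groups, but HLA genes are near copies of each other, so reads can be split between them. The common light chain B2M was at 0.04 with a 95% interval from -0.17 to 0.25, and the peptide transporter TAP1 at 0.07. CD274, which encodes PD-L1, rose from 2.38, 2.23 and 3.59 CPM to 4.2, 5.17 and 6.52 CPM (0.97 ± 0.24, adjusted p = 0.00691). Of 24 NF-kB genes, 6 rose and 1 fell (NFKBIA, the inhibitor IkB alpha, -0.42, not past the threshold without untreated replicate 1 (-0.42), untreated replicate 3 (-0.29) or palbociclib replicate 2 (-0.30)), with a median of 0.16. TRAF1, NFKBIZ and BIRC3 rose by 1.61, 1.59 and 0.94, from mean levels of 0.279, 1.5 and 3.62 CPM.

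Genes that report ERK signalling rose, with 13 of 18 higher, 2 lower and a median of 0.82. DUSP6, a phosphatase that switches ERK off and is itself induced by it, went from 2.73, 0.926 and 2.26 CPM to 6.29, 6.57 and 5.65 CPM (1.64 ± 0.30, adjusted p = 0.00132). PHLDA1 rose from 2.62, 0.926 and 1.37 CPM to 10.6, 9.49 and 7.48 CPM (2.46 ± 0.31, adjusted p = 0.0001), the ETS factor ETV1 by 1.97, and the feedback inhibitors SPRY2 by 1.21 and SPRY4 by 1.10. CCND1 also belongs to this list. MYC was at 246, 186 and 209 CPM with palbociclib and at 242, 156 and 228 CPM without, a change of 0.04 with a 95% interval from -0.30 to 0.38. The list's other ends were PHLDA2 (-1.11) and DUSP7 (-0.48), the latter not past the threshold without untreated replicate 1 (-0.33) or 3 (-0.46) or palbociclib replicate 2 (-0.41) or 3 (-0.39). Of 21 AP-1 and immediate-early genes, 9 rose and 2 fell. FOSB rose by 2.53 from between 0.376 and 0.445 CPM, and ATF3 from 23.6, 22.5 and 22.6 CPM to 84.1, 73.1 and 65.7 CPM (1.71 ± 0.10, adjusted p = 1.22e-06). EGR1 ranged from 6.34 to 28.4 CPM among the untreated libraries and from 10.9 to 13.9 CPM among the palbociclib libraries, and did not pass the test, except without untreated replicate 2 (-0.92, adjusted p = 0.00295). Without that library, the AP-1 members that fell numbered 5 instead of 2.

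Of 27 target genes of p53, 5 were higher, 6 lower and 16 did not pass the test. TP53INP1, which promotes autophagy, rose from 2.62, 4.78 and 3.35 CPM to 20.5, 21.8 and 24 CPM (2.64 ± 0.19, adjusted p = 3.3e-06), and BTG2, an antiproliferative factor, from 6.39, 6.22 and 8.04 CPM to 26.2, 27.7 and 33.5 CPM (2.09 ± 0.14, adjusted p = 2.26e-06). These and CDKN1A were the members with the highest changes. MDM2, the ubiquitin ligase of p53, was at -0.11 with a 95% interval from -0.26 to 0.047, and DDB2 fell by 1.19. The 5 higher genes were 3 without palbociclib replicate 3.

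Of 55 tested lysosome genes, 30 rose, 4 fell and 21 did not pass the test, with a median of 0.29. GLB1, which encodes the lysosomal β-galactosidase behind the senescence stain, was at 168, 165 and 155 CPM in untreated and at 200, 194 and 207 CPM in palbociclib libraries, a 1.24-fold increase (0.31 ± 0.071, adjusted p = 0.00506). LAMP1, a membrane protein of the organelle, rose from 352, 312 and 327 CPM to 461, 430 and 469 CPM (0.47 ± 0.082, adjusted p = 0.000948), but did not pass the test against untreated day-0 cells (0.11, adjusted p = 0.343). The groups were apart in both genes, though by less than in the cell cycle genes. Cathepsin D (CTSD, 0.73) and prosaposin (PSAP, 0.73), the members with the most counts, rose from mean levels of 2870 and 1970 CPM to 4730 and 3250 CPM. The highest changes were those of cathepsin S (CTSS), from 0.419, 0.753 and 0.594 CPM to 2.11, 3.3 and 3.41 CPM (2.34 ± 0.30, adjusted p = 0.00013), the autophagy gene GABARAPL1, from 18.5, 28.4 and 27.8 CPM to 74.2, 80.8 and 75.2 CPM (1.64 ± 0.14, adjusted p = 8.83e-06), and IDS, iduronate 2-sulfatase (1.34). The 4 that fell numbered 2 without untreated replicate 1, and 1 without untreated replicate 3 or palbociclib replicate 2.

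Lipid synthesis genes showed no common direction. Of 32 genes of cholesterol synthesis and uptake, 7 rose and 10 fell, with a median of -0.04. HMGCS1, which makes HMG-CoA, fell from 96.2, 94.4 and 95.4 CPM to 66.8, 61.5 and 66.6 CPM (-0.54 ± 0.073, adjusted p = 0.000159) and ACAT2, the enzyme before it, by 1.33. ABCA1, which exports cholesterol, rose by 1.34. Of 27 fatty acid synthesis genes, 9 rose and 4 fell. FASN, fatty acid synthase, was at 6340, 5750 and 5290 CPM in untreated and at 6370, 8670 and 8140 CPM in palbociclib libraries (0.42 ± 0.12, adjusted p = 0.0162), with the lowest palbociclib library only just above the highest untreated one. It missed the threshold without untreated replicate 3 (0.36) or palbociclib replicate 2 (0.35). ACACA, acetyl-CoA carboxylase 1, was at 0.06 with a 95% interval from -0.10 to 0.22, and ACACB fell by 1.22. THRSP, a regulator of lipogenesis, rose from 24.3, 44.3 and 26.1 CPM to 98.3, 121 and 89.1 CPM (1.72 ± 0.20, adjusted p = 6.07e-05).

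ERBB2, the HER2 gene, was at 6460, 6410 and 6680 CPM in palbociclib and at 7430, 6640 and 6320 CPM in untreated libraries, a change of -0.05 with a 95% interval from -0.26 to 0.15. EPCAM (0.02), KRT18 (-0.02) and FOXA1 (-0.16) did not pass the test either, though FOXA1 did without untreated replicate 2 (-0.25, adjusted p = 0.039) and against untreated day-0 cells (-0.28). Of 34 luminal transcription factors, keratins and related genes, 11 rose, 9 fell and 14 did not pass the test. PIGR, the receptor that carries immunoglobulin A across epithelia, rose most, from 0.683, 2.17 and 1.16 CPM to 11.2, 35 and 25.8 CPM (4.20 ± 0.45, adjusted p = 3.35e-05), followed by MUC15 (1.93), KRT16 (1.63, at up to 1.34 CPM on average) and KRT15 (1.54). TFAP2B fell by 1.44 from a mean of 3.25 CPM, and KRT81 and KRT86, near copies of each other, by 0.87 and 1.17.

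The 12 genes with the highest and the 12 with the lowest fold-change came from no list, apart from LCN2 and PIGR. SCN8A, a voltage-gated sodium channel (chr12:51984050-52206648 in GRCh37), was at 0.661, 0.811 and 0.742 CPM in untreated and at 26.8, 17.7 and 39.8 CPM in palbociclib libraries, 38.5-fold higher (5.27 ± 0.31, adjusted p = 1.22e-06). TFPI2, a protease inhibitor of the matrix, rose 26.4-fold, from 0.507, 1.71 and 1.16 CPM to 20.1, 32.2 and 33.6 CPM, and FAM83A, an adaptor of growth factor signalling, 21.4-fold, from 2.89, 4.37 and 2.37 CPM to 24.1, 97.7 and 83.3 CPM. The next was LCN2, lipocalin 2, an iron-carrier protein, from 0.375, 1.22 and 0.267 CPM to 6.52, 17.3 and 10.2 CPM (4.22 ± 0.48, adjusted p = 5.21e-05), with 5.10 when untreated replicate 2 was left out. WNK4, a kinase that regulates ion transport, rose by 4.17 (4.85 without the same replicate) and GABBR2, a subunit of the GABA-B receptor, by 4.14. PTGS1, cyclooxygenase 1, went from 4.12, 11.6 and 7.81 CPM to 80.7, 147 and 121 CPM (3.91 ± 0.32, adjusted p = 6.39e-06). The others were the mucin gene MUC20 (3.93), LIPK (3.91), TCIM (3.80) and COLCA1 (3.80).

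At the other end, TBATA fell from 8.84, 5.82 and 6 CPM to 0.145, 0.254 and 0.0598 CPM (-5.47 ± 0.36, adjusted p = 2.2e-06). LOC112694756, a gene model without a name, fell from 524, 491 and 471 CPM to 13.2, 11.1 and 10.2 CPM (-5.42 ± 0.11, adjusted p = 5.97e-10), the lowest p-value of the 24. Untreated libraries were tightly grouped in it, and so were palbociclib libraries. MUC5B, a gel-forming mucin, fell by 5.09, and H19, an imprinted long non-coding RNA, from 64.5, 40.7 and 59.8 CPM to 3.04, 2.32 and 2.66 CPM (-4.35 ± 0.19, adjusted p = 3.29e-07). FGFR3, a fibroblast growth factor receptor, fell from 51.6, 31.1 and 47.8 CPM to 4.52, 2.92 and 4.99 CPM (-3.38 ± 0.23, adjusted p = 2.23e-06), and CORO1A, an actin regulator known from leukocytes, by 3.14. BGN (biglycan), TAFA5, CBLN2, TNFRSF18, CHRM1 and SLC18A2 fell by 3.82, 3.75, 3.67, 3.14, 3.13 and 2.93. Because of the way these 24 genes were chosen, no palbociclib library overlapped an untreated one in any of them.

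**Figure D3:**
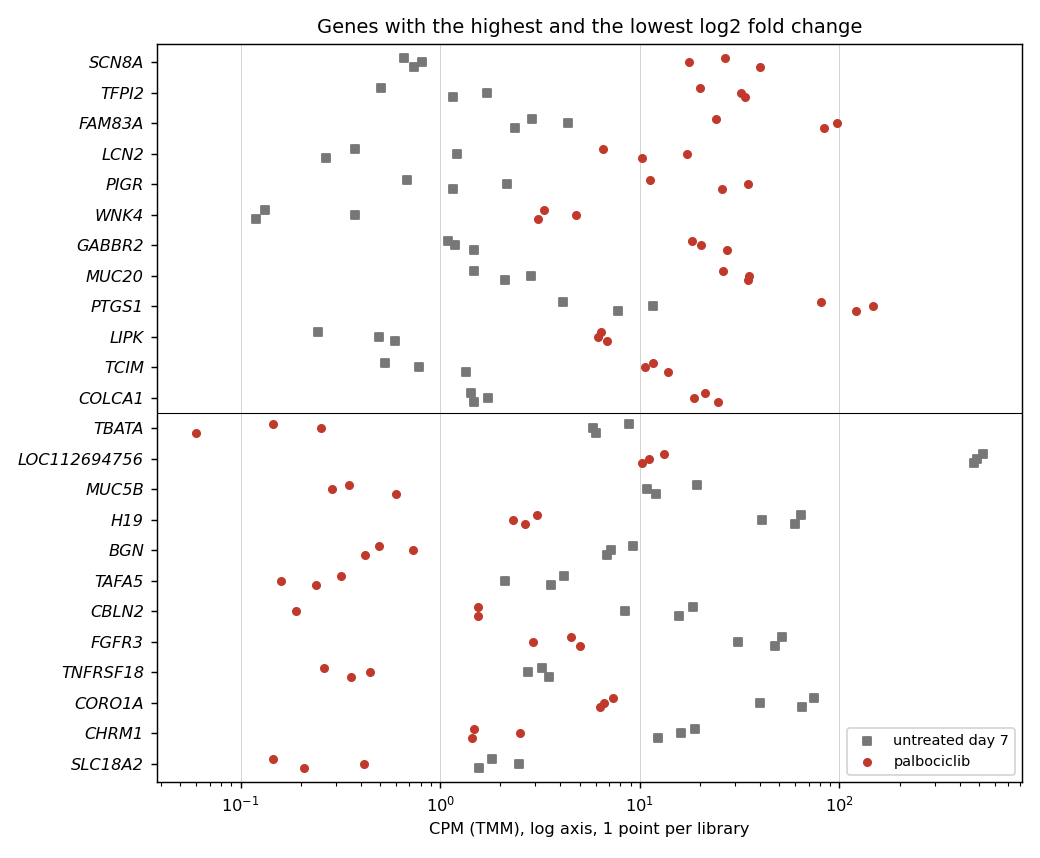
CPM with TMM normalization (log axis) of the 12 genes with the highest and the 12 with the lowest log2 fold-change, with 1 point per library, red circles for palbociclib and grey squares for untreated day-7 cells. Genes were chosen so that the groups do not overlap, and SCN8A (17.7 to 39.8 against 0.661 to 0.811 CPM) and LOC112694756 (10.2 to 13.2 against 471 to 524 CPM) show the widest gaps among genes of each direction with narrow spread.

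Palbociclib cells were then tested directly against cells given alisertib, which also inhibits a cell cycle kinase, though a different one. Of 13846 genes tested, 1856 were higher (13.4%) and 2060 lower (14.9%) in palbociclib cells. Blocking on the replicate number gave 2692 and 2835, but whether these numbers pair the libraries is not settled. Mitosis genes were lower in palbociclib cells in 75 of 77 cases, with a median difference of -0.97, and replication genes in 37 of 42, with a median of -0.80, and 0 members of either list were higher. E2F1 was at 40, 42.4 and 49.6 CPM in alisertib cells and between 12.8 and 16.1 CPM in palbociclib cells (-1.59, adjusted p = 6.62e-06), so that alisertib cells lay at the untreated level of 39.8 to 51.2 CPM. RRM2 stood at 250, 206 and 238 CPM in alisertib cells, between both other groups, and the difference was -1.79 (adjusted p = 7.6e-06). CCND1 was 0.77 higher and CDK6 0.81 higher in palbociclib cells. CDKN1A (1.22, adjusted p = 4.42e-05) was higher as well, its level in alisertib cells being 11, 12.9 and 9.42 CPM, and CDKN2B was at 27.2, 24.8 and 28.3 CPM there (1.58, adjusted p = 2.36e-06).

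Cholesterol genes separated these 2 groups, with 21 of 32 lower and 2 higher in palbociclib than in alisertib cells and a median difference of -0.45. HMGCS1 was at 143, 129 and 128 CPM in alisertib cells (-1.03, adjusted p = 6.52e-06), INSIG1, which retains the SREBP escort protein, at 132, 136 and 147 CPM (-1.03, adjusted p = 8.9e-06) and SQLE at 476, 429 and 505 CPM (-0.56, adjusted p = 0.00106), all above every palbociclib library. Secreted factors were higher in 13 and lower in 4 of 33 cases. CCN2, a matrix-associated growth factor, was at 36.6, 34.2 and 38.1 CPM in palbociclib and at 6.19, 4.52 and 4.31 CPM in alisertib libraries (2.88, adjusted p = 5.77e-07), while GDF15 (0.00) had the same mean level in both. ERK output genes were higher in 8 of 18 and lower in 3. BMF, a BH3-only member of the BCL-2 family, was at 91.3, 130 and 119 CPM against 19.8, 25.2 and 23.2 CPM (2.33, adjusted p = 1.54e-06). With the block, 13 of 18 ERK output genes were higher.

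Against bleomycin cells, 2031 of 13829 genes were higher (14.7%) and 2204 lower (15.9%) in palbociclib cells. With library totals in place of TMM, the split was 3220 higher to 1347 lower, and the median over all genes moved by 0.137, so directions in this comparison are relative to TMM scaling. Blocking on the replicate number gave 2665 and 2770 here. The counts were 1172 and 1314 without palbociclib replicate 1, and 1041 and 1252 without palbociclib replicate 3. Of 77 mitosis genes, 3 were higher and 2 lower, with a median of 0.18. The counts depended on single libraries, with 12 higher and 2 lower without bleomycin replicate 1 (median 0.43), 5 and 7 without bleomycin replicate 2 (median -0.05), and 0 higher and at most 2 lower without any 1 palbociclib library (median 0.018 without replicate 1). With the block 20 were higher and 6 lower, with a median of 0.22, and with library totals 10 were higher and 1 lower. Of the 42 replication genes, 9 were higher and 2 lower (15 and 2 with the block), and 4 were higher without palbociclib replicate 1 or 3. Their median of 0.285 was 0.0815 without bleomycin replicate 2. PLK1 was at 36.8, 19.1 and 30 CPM in bleomycin cells, a range that holds all 3 palbociclib libraries, with a difference of -0.13 and a 95% interval from -0.66 to 0.40. The intervals of RRM2 (-0.63 to 0.99) and E2F1 (-0.62 to 0.63) were as wide, because bleomycin replicate 2 was lower than the other 2 in these genes. CCNE1 was higher in palbociclib cells, between 24.3 and 26.3 CPM against 14.4, 9.74 and 14.6 CPM (0.96, adjusted p = 0.00276).

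Interferon-stimulated genes differed between palbociclib and bleomycin cells, with 33 of 38 lower in palbociclib cells, 1 higher (STAT2, 0.40) and a median of -1.78, or -1.64 with library totals. OAS2 was at 1.04, 1.62 and 1.08 CPM in palbociclib and at 51.5, 33.1 and 46.6 CPM in bleomycin libraries (-5.14, adjusted p = 4.37e-06), IFI6 at 2.95, 3.43 and 3.05 CPM against 95.2, 71.7 and 81.3 CPM (-4.72, adjusted p = 5.33e-07) and OAS3 at 7.33, 6.6 and 6.49 CPM against 132, 77.8 and 122 CPM (-4.02, adjusted p = 6.03e-06). In all 3 the lowest bleomycin library was far above the highest palbociclib one. NF-kB genes were lower in 16 of 24 cases and higher in 0, MHC class I genes lower in 14 of 28 and higher in 0, and secreted factors lower in 19 of 33 and higher in 2. The factors that were higher were IGFBP3 (1.30) and IGFBP5 (1.54). ICAM1, an adhesion molecule for leukocytes, was at 60.5, 50.4 and 71.6 CPM in bleomycin libraries against 11.6, 11.4 and 11.1 CPM (-2.42, adjusted p = 1.17e-05), and CSF1, a macrophage growth factor, differed by -2.96 (adjusted p = 5.72e-06). CDKN1A was at 33.7, 31.6 and 39 CPM in bleomycin cells, above the palbociclib range (-0.44, adjusted p = 0.0148), and CDKN2B at 47.4, 35.9 and 72 CPM, with a difference of 0.62 that did not pass the test (adjusted p = 0.0525).

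**Figure D4:**
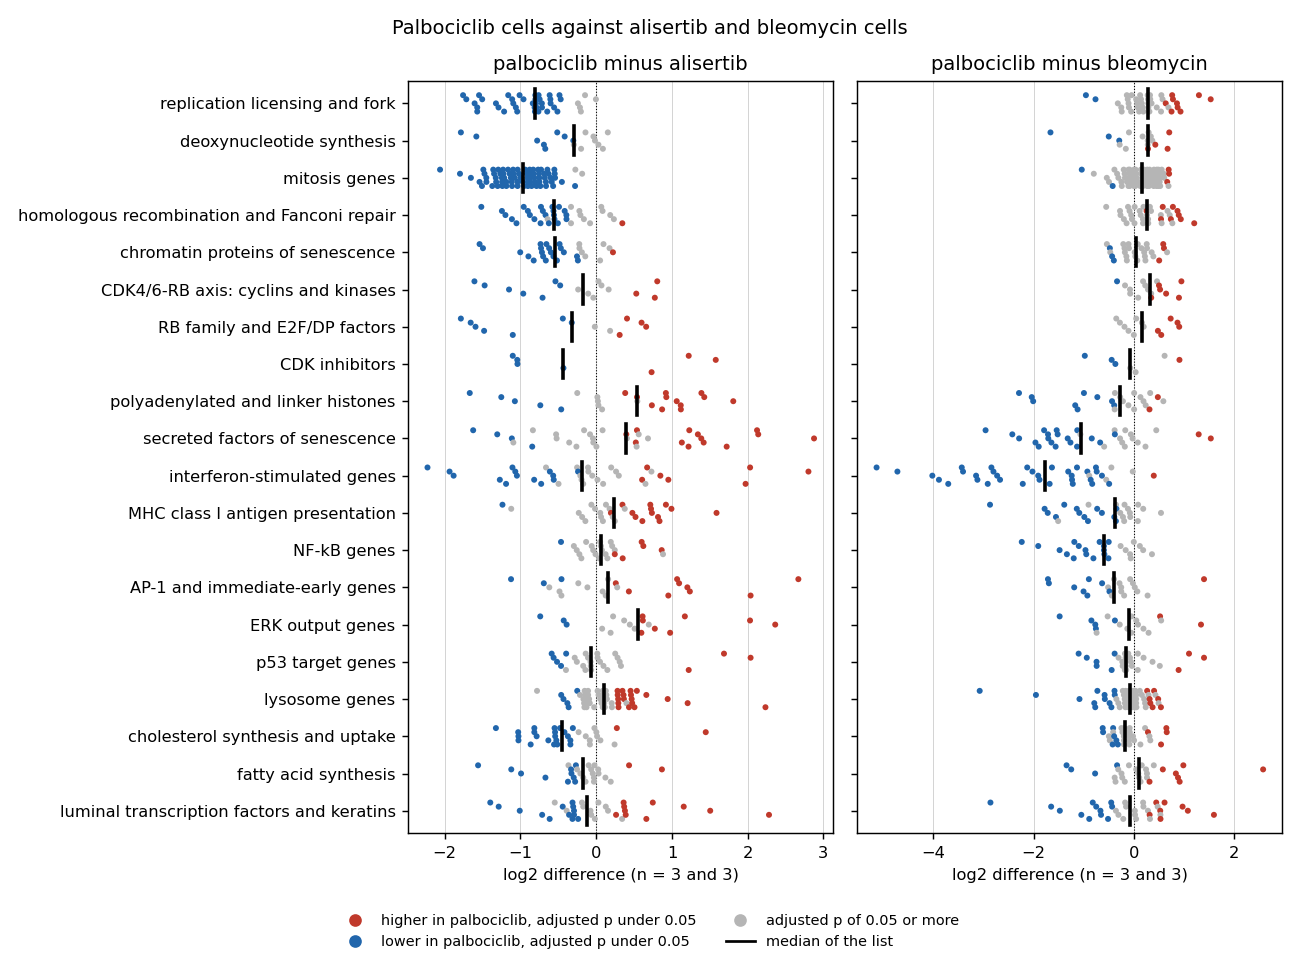
Log2 difference of each tested gene in 20 lists, palbociclib minus alisertib (left) and palbociclib minus bleomycin (right), n = 3 and 3, with 1 point per gene, red for higher and blue for lower in palbociclib cells at adjusted p under 0.05, grey for the rest and a black bar at the median. Mitosis and replication genes lay left of 0 against alisertib (75 of 77 and 37 of 42 lower) and near 0 against bleomycin, where the interferon-stimulated genes lay to the left (33 of 38 lower).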

How the data were processed

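RNA from SKBR3 cells was sequenced by the authors, who aligned reads with HISAT2, quantified genes with StringTie on GRCh37 and used DESeq2, per the labels and the submitters' processing notes. The methods give the aligner and assembler versions and name a stranded kit. The settings with which genes were counted, strand included, are not given in the sources used here. The deposited values are whole-number counts per gene, 1 column for each of the 24 libraries, with no column left unused. No listed gene has a count of 0 in any library, so genes that are off in some libraries are not analysed here.

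Groups were taken from the sample labels. After filterByExpr, differences were assessed by edgeR (version 4.0.16, R 4.3.3, TMM, quasi-likelihood, 3 against 3 libraries, Benjamini-Hochberg adjusted p under 0.05). For 1 gene alone, the exact permutation test of 3 against 3 cannot give a p under 0.1. CPM values used TMM factors over all 24 libraries. CPM is not per length, so levels are not compared between genes. Depth sets the precision of low genes, and genes under about 1 CPM were read with care.

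Named genes were the 12 highest and 12 lowest fold-changes among called genes without overlap and with a mean of at least 1 CPM, members of 30 gene lists (828 of 933 listed genes in the table, 826 tested), and RB1, CDK4 and CDK6. These lists and the comparison were chosen with earlier results of these data known. Simulated data for palbociclib against untreated day-7 cells held 13730 genes. There edgeR recovered 81 of 99 genes changed by 1 on the log2 scale (81.8%) and 97 of 98 changed by 2 (99%). Beside these correct calls it made 23 false ones. Far fewer genes were changed in the simulation than were called in the data. Promoters were RefSeq sequences of GRCh38.p14 matched by gene identifier, with only the promoter listed first for each gene, while gene positions are GRCh37.

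Deviations of same-numbered libraries correlated at 0.174, 0.231 and 0.271 for alisertib and 0.176, 0.19 and 0.302 for bleomycin. For untreated day-7 cells these values were 0.194, 0.24 and 0.0474. The pairing comes from the numbers in the labels and these correlations, and libraries of different numbers were not compared. Calls and p-values are from fits without the block unless the block is named, so they leave out any pairing. Alternatives were DESeq2 1.42.0, other scaling and filters, a fit of all 24 libraries, the replicate block, leaving out each library, a fold threshold of 2 and untreated day-0 cells as reference. A few measured genes are not reported here.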

Additional observations from a re-analysis of the deposited data

Results flagged for a closer look

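Of the 24 genes with the highest and lowest fold-changes against untreated cells, 10 also differed from alisertib cells by at least 8-fold in a direct test of both treatments. The higher ones were GABBR2 (log2 difference 3.96, adjusted p = 6.52e-06 by edgeR), SCN8A (3.61, adjusted p = 2.81e-05), FAM83A (3.61, adjusted p = 0.000143), PTGS1 (3.51, adjusted p = 2.83e-06) and WNK4 (3.13, adjusted p = 6.97e-05). The lower ones were LOC112694756 (-5.01, adjusted p = 4.37e-07), SLC18A2 (-3.94, adjusted p = 1.38e-05), TBATA (-3.40, adjusted p = 0.000138), MUC5B (-3.11, adjusted p = 0.000144) and BGN (-3.00, adjusted p = 1.38e-05). For LOC112694756, alisertib libraries were at 423, 446 and 247 CPM and bleomycin libraries at 37.6, 7.57 and 7.96 CPM, against 10.2 to 13.2 CPM with palbociclib. Against bleomycin cells, 1 of the 24 genes differed by as much, BGN, a proteoglycan of the matrix (-3.40, adjusted p = 0.000116). Among the 12 highest genes, LCN2 (-1.71), PIGR (-2.86) and MUC20 (-1.17) were lower in palbociclib than in bleomycin cells. FAM83A (0.50) and TCIM (0.42) did not pass that test. SCN8A, TFPI2, WNK4, GABBR2, PTGS1, LIPK and COLCA1 were higher in palbociclib cells, by 1.08 (TFPI2) to 2.64 (COLCA1). The 24 genes were chosen by values of the same 3 palbociclib libraries that entered both direct tests, so these counts partly follow from the choice. Of all 13846 genes tested against alisertib cells, 389 were higher and 397 lower by at least 2-fold. The share of all genes at 8-fold was not counted.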

How the results depend on the processing

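Against untreated day-7 cells, a fold of at least 2 reduced the calls to 879 higher and 639 lower (898 and 649 with unadjusted p). Leaving out 1 library gave 2379 to 2983 higher and 2496 to 3109 lower genes. The replicate block gave 3516 higher and 3553 lower (correlations of same-numbered libraries 0.194, 0.24 and 0.0474). Fits with that block gave 2692 and 2835 against alisertib and 2665 and 2770 against bleomycin. Against alisertib cells, the fit of all 24 libraries gave 1124 and 1351, a fold of at least 2 gave 389 and 397 (413 and 420 with unadjusted p), and leaving out 1 library 1309 to 1554 and 1516 to 1803. Against bleomycin cells, library totals gave 3220 and 1347, a fold of at least 2 gave 453 and 647 (511 and 694 with unadjusted p), and leaving out 1 library 1041 to 1929 and 1252 to 2094, lowest without palbociclib replicate 3. The cause was not tested. Against day-0 cells, some of the 24 genes changed by other amounts, such as LCN2 (3.61), FAM83A (3.32), PIGR (5.18), H19 (-5.24) and SLC18A2 (-1.21). Of the named genes, INSIG1 (0.41) changed sign with day-0 cells as reference. CDK4 (-0.15), CDKN1B (-0.28), LAMP1 (0.11), IFI6 (-0.26), KRT15 (0.31), WEE1 (-0.28), H2AC18 (0.42), H2AC19 (0.41), MACROH2A2 (-0.83), MAX (0.037), NFKBIA (-0.28), ATR (0.26) and ULBP2 (-0.39) missed the threshold with that reference. CDK4 (-0.26), CDKN2A (0.38), E2F3 (0.44), RBL2 (0.30), FASN (0.42), MAD2L1 (-0.43), ATR (0.22), NFKBIA (-0.43) and INSIG1 (-0.42) missed it in the fit of all 24 libraries. Against alisertib cells, that fit put 13 cholesterol genes lower and 1 higher. Genes that passed the threshold against day-0 but not day-7 cells included MX1 (0.81), OAS2 (0.77), TNF (0.79), MYC (0.58) and KRT18 (-0.37). With 3 libraries a group and genes near 1 CPM, small differences were not detectable at this depth.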

Other observations

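Of 37 glycolysis genes, 16 were lower in palbociclib than in untreated cells, 6 were higher and 15 did not pass the test, with a median of -0.21. LDHA, which makes lactate from pyruvate, fell from a mean of 1460 CPM to 715 CPM (-1.03, adjusted p = 9.85e-06 by edgeR), ENO1 by 0.67 and GAPDH by 0.60. PFKFB3, which makes an activator of phosphofructokinase, rose from a mean of 74.1 CPM to 218 CPM (1.57, adjusted p = 5.03e-07), and ARRDC4, a glucose-regulated arrestin, by 1.32. Of 40 ribosome biogenesis and MYC-related genes, 15 were lower, 4 were higher and 21 did not pass the test. The 4 higher ones were MXD1 (0.83), MXD4 (0.94), MXI1 (0.62) and MAX (0.28), which encode the partner of MYC and factors that compete with it, and FBL, fibrillarin, had the lowest change of the list (-0.65).

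Adhesion and actin genes were higher in 28 of 51 cases and lower in 12, with a median of 0.42. FN1, fibronectin, was at 462, 579 and 715 CPM in palbociclib and at 64.1, 90 and 74.9 CPM in untreated libraries (2.95, adjusted p = 1.08e-06), and ITGB6, an integrin subunit that binds it, rose from a mean of 69.4 CPM to 353 CPM (2.36). ACTB (-0.57), TAGLN2 (-0.59), S100A4 (-1.51) and S100A6 (-0.90) fell. NRF2 and antioxidant genes were higher in 12 of 27 cases and lower in 3, with a median of 0.34 (0.18 without palbociclib replicate 2), led by the exporter ABCC3 (2.74) and GPX2 (mean 26.6 to 74.9 CPM), while GPX4, which protects membrane lipids from peroxidation, fell by 0.60. In the BCL-2 family 2 of 16 genes rose, BMF (2.14) and MCL1 (0.29), and 3 fell, including BCL2 (-1.36, from a mean of 2.44 CPM to 0.934 CPM). Among 33 genes of ATF4 and the unfolded protein response 8 rose and 4 fell, with DDIT4, an inhibitor of mTORC1, highest (1.61). These counts were 4 and 7 without untreated replicate 1, 4 and 4 without untreated replicate 3, 5 and 8 without palbociclib replicate 2, and 3 and 5 without palbociclib replicate 3. Among 20 genes of the HER2 amplicon and ERBB receptors 4 rose and 3 fell, and of 6 tested basal epithelial genes 3 rose and 1 fell.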
